A study of Mus musculus with 62 samples.

Results

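BBN963 cells exposed to trametinib alone for 72 h were compared with BBN963 cells kept in DMSO for 72 h. BBN963 is a mouse line of basal bladder cancer, labelled as C57bl/6 WT. Trametinib is an inhibitor of the kinase MEK, and DMSO is its solvent. The members are the 5 trametinib libraries and the 5 DMSO libraries that share 1 deposited table, out of 62 samples in the whole series. The series asks what trametinib and rosiglitazone (a drug that activates the nuclear receptor PPARG) do to basal bladder tumours and tumour cells. Another 5 libraries, rosiglitazone plus trametinib at 72 h, are used once for comparison. All groups come from a single cell line, the concentration of trametinib is not given in the sources used here, and nothing says whether replicates were separate cultures, so p-values measure only the spread between these libraries.

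MEK is the kinase that activates ERK, the last kinase of the RAS-RAF-MEK-ERK cascade below growth factor receptors. Active ERK drives immediate early transcription factors, D-type cyclin and its own inhibitors, the dual-specificity phosphatases and the Sprouty and Spred proteins. In bladder epithelium, basal cells make keratins such as Krt5 and Krt14, while luminal cells make uroplakins, and squamous differentiation is marked by small proline-rich proteins of the cornified envelope.

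Values are normalised read counts per gene, and a log2 change is the difference between group means of log2(value + 1), trametinib minus DMSO, which understates the change of genes near 0. A gene was called when the limma adjusted p was under 0.05. Each library held an estimated 34.5 to 47.9 M reads, where M stands for mega. Of 14414 genes tested, 10249 were called (71.1%), 5159 of them higher with trametinib (35.8%) and 5090 lower (35.3%), and the median change of all genes was 0.01. With so many calls, a second rule also asked for a change of at least 2-fold, which 1269 genes met upward (8.8%) and 1010 downward (7.01%). The groups did not overlap for 59.7% of the genes tested. These shares are the background for every list count and every non-overlap given below. DMSO replicate 4 stood apart from the other DMSO libraries. Its position on the second principal component, which held 6.4% of the variance, was -41.32, against 8.14 to 14.27 in the other DMSO libraries, and its correlations with them were 0.9856 to 0.9867. Without it 10540 genes were called.

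The description of BBN963 as basal was checked against markers. Epithelial genes were abundant in both groups: Cdh1 (E-cadherin) averaged 35271 with trametinib and 22841 in DMSO, and Epcam averaged 14312 with trametinib and 20792 in DMSO. The basal keratin Krt14 was expressed in both groups, and the basal surface gene Cd44 averaged 7739 with trametinib and 16731 in DMSO. The defining basal genes Krt5 and Trp63 were low. Krt5 averaged 1.57 with trametinib and 3.7 in DMSO. Trp63 averaged 3.2 with trametinib and 11.3 in DMSO, and neither reached the filter of 10 in at least 5 libraries. The authors' deposited log2 changes were -1.95 for Trp63 (DESeq2 adjusted p = 0.00459) and -1.21 for Krt5 (DESeq2 adjusted p = 0.27). The luminal genes Upk1b, Upk3a and Krt20 averaged 1.55, 0.409 and 2.79 with trametinib, against 0, 0 and 2.99 in DMSO. Other luminal genes were abundant in both groups. Cldn4 averaged 20730 with trametinib and 10406 in DMSO, and Elf3 averaged 5246 with trametinib and 4905 in DMSO. Krt14 and Cd44 thus go with the basal description, whereas the low Krt5 and Trp63 and the abundant luminal genes do not.

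Markers of other cell types were low. The summed level of 10 fibroblast markers was 328 to 412 with trametinib and 391 to 536 in DMSO. Col1a2 averaged 1.18 with trametinib and 0.889 in DMSO, and Col1a1 24.6 with trametinib and 31.8 in DMSO. Of these 10 markers 4 were tested, and 1 rose and 1 fell. Fap rose by 1.03, at 63.3 with trametinib and 32.0 in DMSO, and Pdgfra fell by 1.0. The summed level of 12 immune markers was 1015 to 1101 with trametinib and 530 to 744 in DMSO. Of these 12 markers 6 were tested, of which 2 rose and 1 fell. The largest part of the sum came from the lysosomal protein Cd68, at 757 with trametinib and 382 in DMSO. Csf1r, the receptor of the macrophage growth factor CSF1, was at 151 with trametinib and 19.4 in DMSO. The marker that fell was the T cell gene Cd3d, at 90.0 with trametinib and 165 in DMSO (log2 change -0.77). The immune genes Adgre1 and Lyz2 were near 0, at 0.229 and 1.12 with trametinib, against 0 and 1.69 in DMSO. The summed level of 8 endothelial markers was 320 to 366 with trametinib and 481 to 558 in DMSO, with Cdh5 at 0 with trametinib and 0.404 in DMSO. Of these markers 3 were tested and 1 fell, Egfl7, at 179 with trametinib and 348 in DMSO. The 6 adipocyte markers summed to 9.1 to 27.0 with trametinib and to 5.15 to 13.9 in DMSO, and none reached the filter. The part of these marker levels in the results was not tested.

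Of the markers of the trametinib response, Dusp6, Spp1 and Il1a fell and Sprr1a and Krt14 rose, and in each the groups lay far apart. Dusp6 (chromosome 10, 99263231 to 99267489, GRCm38) encodes the phosphatase that removes activating phosphates from ERK. Its values were 47.3, 62.6, 55.8, 64.8 and 59.1 with trametinib, against 2418, 2714, 2681, 2600 and 2711 in DMSO. Every trametinib library lay below every DMSO library, and the log2 change was -5.48 ± 0.08 (SE, n = 5 each; limma adjusted p = 2.66e-15). Spp1 (chromosome 5, 104435118 to 104441050) encodes osteopontin, a secreted phosphoprotein. Its values were 533, 497, 536, 439 and 532 with trametinib, against 18581, 19035, 18816, 20126 and 19541 in DMSO. The groups did not overlap, the DMSO mean was 37.9-fold the trametinib mean, and the log2 change was -5.24 ± 0.05 (limma adjusted p = 1.69e-16).

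Il1a (chromosome 2, 129299610 to 129309972) encodes interleukin-1 alpha, an alarmin of epithelial cells. Its values were 22.3, 22.3, 26.8, 18.4 and 26.4 with trametinib, against 4070, 4147, 4238, 3858 and 4306 in DMSO. The trametinib libraries were all close to the detection filter, far below every DMSO library, with a log2 change of -7.42 ± 0.09 (limma adjusted p = 5.75e-16). Sprr1a (chromosome 3, 92483952 to 92485895) encodes a precursor of the cornified envelope. Its values were 12943, 12663, 13127, 14511 and 14520 with trametinib, against 338, 409, 402, 392 and 329 in DMSO. The trametinib mean was 36.2-fold the DMSO mean, with no overlap, and the log2 change was 5.18 ± 0.07 (limma adjusted p = 6.56e-16). Krt14 (chromosome 11, 100203162 to 100207548) had 13286, 12575, 12292, 13765 and 12683 with trametinib, against 1947, 1731, 1669, 2277 and 1714 in DMSO. It was already well expressed in DMSO, and its log2 change was 2.80 ± 0.07 (limma adjusted p = 5.42e-13), 6.96-fold. In the authors' deposited table the log2 changes of Dusp6, Spp1, Il1a, Sprr1a and Krt14 were -5.52, -5.25, -7.48, 5.18 and 2.79.

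**Figure D1:**
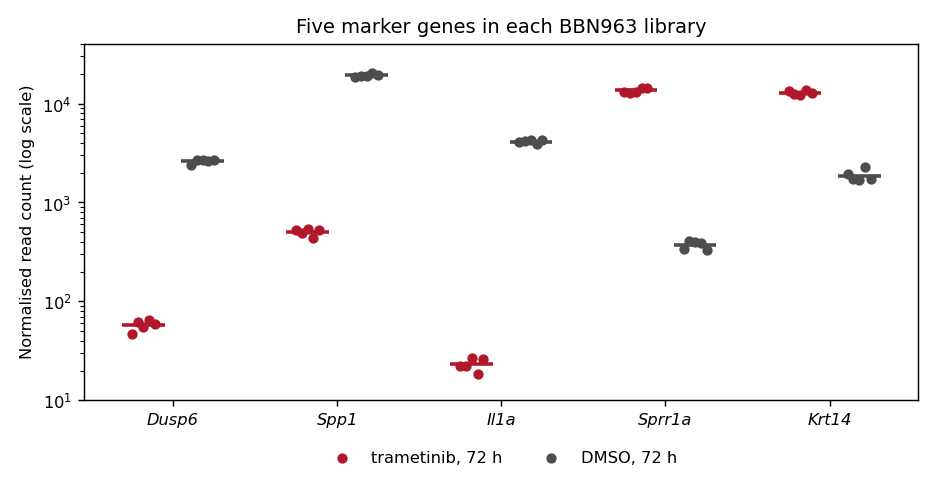
Normalised read count (log axis) of Dusp6, Spp1, Il1a, Sprr1a and Krt14 in each of the 5 trametinib libraries (red, left) and the 5 DMSO libraries (grey, right) at 72 h; each point is a library and each line a group mean. Dusp6, Spp1 and Il1a lie lower with trametinib, Sprr1a and Krt14 higher, and the groups do not overlap for any of them.

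ERK feedback genes moved both ways. Of 19 tested members 12 fell and 6 rose, 10 and 3 of them by at least 2-fold, with a list median of -1.13 against 0.01 for all genes. Spry4, a Sprouty inhibitor of RAS activation, was nearly lost: its values were 2.03, 0, 5.36, 1.94 and 8.03 with trametinib, against 222, 256, 242, 246 and 219 in DMSO (log2 change -6.09 ± 0.45, limma adjusted p = 2.07e-08). Dusp5, a nuclear ERK phosphatase, averaged 74.2 ± 3.62 with trametinib and 851 ± 83.1 in DMSO (SD, n = 5 each), a log2 change of -3.50. The Spred gene Spred2 and the phosphatase gene Dusp4 fell by 2.63 and 2.38 on the log2 scale, and Spry2 by 2.02. The members that rose include phosphatases that act mainly on the stress kinases p38 and JNK. Dusp10 had 2581, 2413, 2473, 2602 and 2501 with trametinib, against 597, 605, 562, 608 and 581 in DMSO, a log2 change of 2.09 ± 0.04 (limma adjusted p = 6.4e-14). Dusp8 rose by 1.38 and Dusp1 by 0.99.

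ERK-driven transcription factors fell in 14 of 24 tested members and rose in 7, with a median of -0.65. The PEA3-type ETS factors gave the lowest values. Etv4 (chromosome 11, 101769742 to 101785371) had 2.11, 6.15, 2.73, 1.53 and 0 with trametinib, against 737, 773, 655, 830 and 768 in DMSO (log2 change -8.01 ± 0.38, limma adjusted p = 2.35e-10). Etv5 (chromosome 16, 22381309 to 22439719) had 16.2, 3.96, 2.06, 7.46 and 5.21 with trametinib, against 1401, 1330, 1241, 1261 and 1537 in DMSO (-7.65 ± 0.35). Both were thus at low levels in the trametinib libraries and abundant in DMSO. Their relative Etv1 fell by 3.86 and the zinc finger factor Egr1 by 4.71.

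Members of the AP-1 family, dimers of FOS and JUN proteins, did not move together. Fosl1 had 223, 200, 165, 229 and 217 with trametinib, against 2846, 2847, 2584, 3035 and 2867 in DMSO (log2 change -3.78 ± 0.08, limma adjusted p = 9.92e-14). Fos fell by 3.20 and Fosb by 2.43. The family member Fosl2 was higher in every trametinib library, at 20397, 21163, 21409, 21301 and 22509, against 8024, 7896, 8076, 7378 and 7444 in DMSO (log2 change 1.46 ± 0.04). Jun rose by 0.75 and Jund by 0.33, and Junb, at 10165 with trametinib and 9579 in DMSO on average, was not called (log2 change 0.08). Myc, the growth-promoting transcription factor, averaged 2219 ± 154 with trametinib and 5839 ± 379 in DMSO and fell by 1.40, and Ier3 and Maff fell by 2.37 and 2.35.

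**Figure D2:**
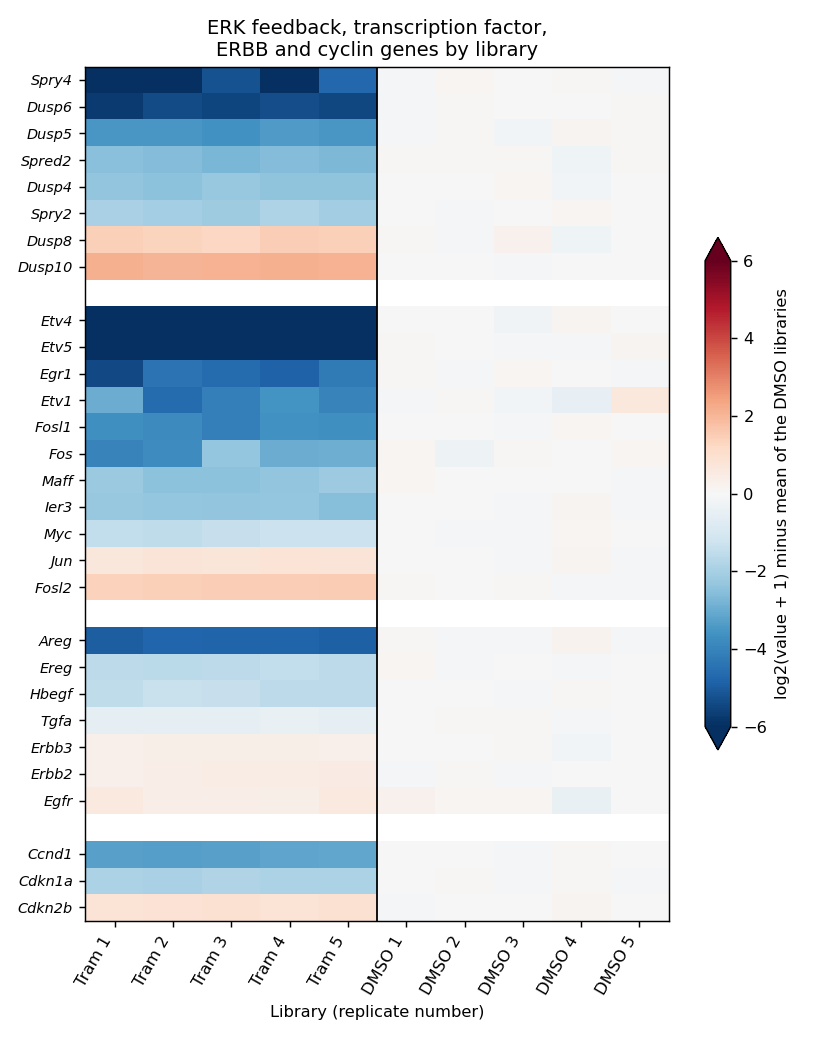
Difference of log2(value + 1) from the mean of the DMSO libraries, for ERK feedback genes, ERK-driven transcription factors, ERBB genes and cell cycle regulators (from top to bottom) in each trametinib and DMSO library; the colour scale ends at -6 and 6. Within a gene the 5 trametinib libraries share a colour, dark blue for Spry4, Dusp6, Etv4, Etv5 and Areg and red for Dusp8, Dusp10, Fosl2, Jun and Cdkn2b.

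Components of the cascade itself changed little. Of 27 tested genes 11 fell and 8 rose, but none by 2-fold, and the changes ran from -0.58 to 0.99. Of all genes 35.3% fell and 35.8% rose. Map2k1, which encodes the MEK1 target of the drug, fell by 0.32, and Map2k2, which encodes MEK2, was not called (0.03). Mapk3, which encodes an ERK kinase, rose by 0.36. Gab1, an adaptor below growth factor receptors, had the highest value, 0.99.

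Of 13 tested EGF family ligands and receptors 6 fell and 4 rose (median -0.23), near the shares of all genes, 35.3% lower and 35.8% higher, so only single members are described. The ligand gene Egf rose by 0.55. The call of Egf was lost without trametinib replicate 1, 3, 4 or 5 or DMSO replicate 1, 3 or 5 (0.44 to 0.57) and under quantile normalisation (0.39). Areg, which encodes amphiregulin, had 45.7, 52.0, 50.2, 50.4 and 47.0 with trametinib, against 1504, 1380, 1322, 1667 and 1357 in DMSO (log2 change -4.85 ± 0.08, limma adjusted p = 6.07e-15). The ligand genes Ereg, Hbegf and Tgfa fell by 1.57, 1.48 and 0.54, while Nrg1 was not called (-0.07). The receptor genes Egfr, Erbb2 and Erbb3 rose by 0.46, 0.42 and 0.33. Among 17 other receptor tyrosine kinases 9 fell and 5 rose, against the same shares of all genes. Epha2 fell by 0.96, and Fgfr2 averaged 123 ± 28.5 with trametinib and 33.6 ± 15.8 in DMSO, a log2 change of 1.91 ± 0.25 (limma adjusted p = 8.37e-06).

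Genes of DNA replication and mitosis were lower throughout, and Ccnd1 fell more than any of them. Of 15 D cyclin and inhibitor genes 9 fell and 3 rose (median -0.20). Ccnd1 (chromosome 7, 144929931 to 144939925), the cyclin D1 gene, had 3324, 3269, 3356, 3549 and 3635 with trametinib, against 31480, 32057, 29655, 33567 and 32687 in DMSO. The DMSO mean was 9.3-fold the trametinib mean, and the log2 change was -3.22 ± 0.04 (limma adjusted p = 6.56e-16). The cyclin D2 gene Ccnd2, at 18044 with trametinib and 17563 in DMSO, was not called (0.04). Among inhibitors of cyclin-dependent kinases, Cdkn1a (p21) fell by 1.90, whereas Cdkn2b (p15) rose by 0.87 and Cdkn2a by 0.40. All 32 genes of DNA replication fell, 17 of them by at least 2-fold, with a median of -1.03; Uhrf1, Cdc6 and E2f8 fell by 1.52, 1.49 and 1.36. All 28 mitosis genes fell, 25 by at least 2-fold, with a median of -1.27. Mki67, the proliferation marker, had 16372, 15703, 13906, 15129 and 14664 with trametinib, against 43884, 42095, 40026, 40951 and 41994 in DMSO (log2 change -1.46 ± 0.05, limma adjusted p = 2.33e-12). Unlike Etv4 or Dusp6, it was still abundant with trametinib. In such bulk libraries fewer cells of a kind and less RNA per cell cannot be told apart.

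Genes of ribosome biogenesis, which assemble ribosomal RNA and proteins in the nucleolus, also fell without exception among the 30 tested, 12 by at least 2-fold (median -0.98). Npm1 (nucleophosmin) averaged 57732 ± 1659 with trametinib and 139475 ± 10065 in DMSO (log2 change -1.27), and Polr1b, a subunit of RNA polymerase I, fell by 1.39. DMSO replicate 4 was the highest library of this list, with a mean log2 level of 12.75 against 12.50 to 12.63 in the other DMSO libraries and 11.60 to 11.67 with trametinib. The list counts for replication, mitosis and ribosome biogenesis kept within 1.5 times of these values without that library.

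Of 27 genes of glycolysis and the hypoxia response 21 fell and 4 rose (median -0.74). Gapdh had 140989, 133981, 149934, 145983 and 152361 with trametinib, against 238268, 243298, 246271, 284867 and 239204 in DMSO (log2 change -0.79 ± 0.05, limma adjusted p = 6.47e-09). Hk2, the first enzyme of glycolysis, fell by 1.47, and Egln3 and Vegfa, which respond to hypoxia, by 2.50 and 1.81. For Gapdh and Hk2 DMSO replicate 4 was well above the rest of its group, but the other DMSO libraries also lay above all trametinib libraries. Genes of serine synthesis and ATF4 targets fell in 19 of 22 members (median -0.64). The cystine transporter Slc7a11 averaged 369 ± 27.3 with trametinib and 2114 ± 194 in DMSO (log2 change -2.51), and Psat1 and Shmt2 of serine and one-carbon metabolism fell by 1.59 and 1.56. Of the 2 members that rose, Nupr1, a stress-induced chromatin protein, had 43720, 46427, 53267, 45735 and 49788 with trametinib, against 6601, 6504, 6663, 7694 and 6563 in DMSO (log2 change 2.81 ± 0.06).

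Genes of the lysosome, cholesterol synthesis and fatty acid oxidation were mostly higher. Of 31 lysosome and autophagy genes 26 rose and 1 fell (median 0.69). The membrane glycoprotein gene Lamp1 had 58718, 60881, 61760, 59851 and 60510 with trametinib, against 33376, 32645, 33651, 34813 and 33382 in DMSO (log2 change 0.85 ± 0.03, limma adjusted p = 1.68e-11). The protease gene Ctsh rose by 1.64 and Hexa, a subunit of hexosaminidase, by 1.44; Tfe3, a transcription factor of lysosome genes, fell by 0.19. Cholesterol synthesis and uptake rose in 18 of 24 members and fell in 2 (median 0.46), with Mvd, an enzyme of the mevalonate pathway, at 0.95. Fatty acid oxidation rose in 18 of 25 and fell in 4 (median 0.37). Cpt1a, which brings fatty acids to the mitochondrion, averaged 9451 ± 335 with trametinib and 3274 ± 159 in DMSO (log2 change 1.53), and Ppargc1a, a coactivator of mitochondrial genes, rose by 2.75. Of 19 PPARG targets tested 9 were higher, 3 were lower and 7 were not called (median 0.14). The list holds 30 genes, and the others did not reach the filter. Angptl4 rose by 1.83 and Lpl fell by 0.78. The adipocyte lipid carrier gene Fabp4 was near the filter, at 9.74 with trametinib and 15.1 in DMSO, and was not called. Pparg itself rose by 0.77.

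Squamous genes rose in 14 of 21 tested members and fell in 2, with 11 higher by at least 2-fold and a median of 1.13. The list holds 39 genes, and the other 18 did not reach the filter, so these counts are not those of the whole list. Besides Sprr1a, the keratin genes Krt4 and Krt16 rose. Krt4 had 1384, 1551, 1627, 1563 and 1560 with trametinib, against 115, 114, 128, 124 and 97.0 in DMSO (log2 change 3.72 ± 0.08, limma adjusted p = 7.74e-14). Krt16 rose by 3.31, and the Sprr2 gene Sprr2a2 by 2.70, though reads of near-identical Sprr2 copies can be split between them. Sprr2e fell by 2.08. Ivl (involucrin), another envelope precursor, averaged 10.1 with trametinib and 9.42 in DMSO and was not called.

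In both the basal and the luminal list more tested members rose than fell. Of 17 basal genes tested 10 rose and 5 fell (median 0.45), where 35.8% of all genes rose and 35.3% fell. The list holds 21 genes, and Krt5, Trp63, Ngfr and Pdpn did not reach the filter. Krt15 had 708, 816, 782, 802 and 892 with trametinib, against 23.8, 14.7, 19.7, 17.2 and 6.58 in DMSO (log2 change 5.62 ± 0.25, limma adjusted p = 7.31e-11). Krt17 rose by 2.53. Lamb3 and Lama3, genes of a laminin that anchors basal cells to the basement membrane, rose by 2.34 and 0.84. Lamb1, of other laminins, averaged 675 ± 45.8 with trametinib and 5778 ± 187 in DMSO and fell by 3.10, and the basal surface genes Cd44 and Itga6 fell by 1.11 and 1.02. Of 25 luminal genes tested 16 rose and 3 fell (median 0.27). The list holds 31 genes, and Upk1b, Upk3a, Upk3b, Krt20, Snx31 and Vgll1 did not reach the filter, so these counts leave them out. The serine protease gene Tmprss2 had 8720, 9233, 9243, 9037 and 8765 with trametinib, against 1606, 1578, 1698, 1531 and 1623 in DMSO (log2 change 2.48 ± 0.04). The luminal regulator Foxa1 rose by 0.79 and Gata3 by 0.24, and Psca, a surface antigen, rose by 4.11. Upk2 rose by 1.51 at low levels, 93.1 with trametinib and 32.2 in DMSO, and the luminal keratin Krt18 fell by 1.29.

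Junction genes rose in 13 of 19 tested members and fell in 3 (median 0.63), among them Dsp (desmoplakin) at 1.34, Cgn (cingulin) at 1.41 and Pkp1 at 1.10. Of 20 regulators and markers of epithelial-mesenchymal transition 11 fell and 7 rose (median -0.22). The shares of all genes were 35.3% lower and 35.8% higher. Vim (vimentin) averaged 694 ± 73.7 with trametinib and 4639 ± 511 in DMSO and fell by 2.74, and the chromatin factor Hmga2 fell by 2.43. Not all of the list moved that way, since Tgfb2, a transforming growth factor, had 893, 836, 732, 799 and 902 with trametinib, against 95.6, 102, 124, 101 and 103 in DMSO (log2 change 2.98 ± 0.09, limma adjusted p = 1.39e-12). The mesenchymal repressor Zeb1 rose by 0.78, and the epithelial splicing factor Esrp2 by 1.16, while its paralogue Esrp1 averaged 6457 ± 177 with trametinib and 8926 ± 210 in DMSO and fell by 0.47.

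Inflammatory cytokines did not share a direction. In the interleukin-1 family, the agonists Il1a and Il1b fell and so did the alarmin Il33 (-2.81 ± 0.13). Il1b had 0, 0.664, 0.859, 4.32 and 0 with trametinib, against 52.2, 40.4, 39.2, 57.1 and 34.9 in DMSO (log2 change -4.68 ± 0.43). Il18, another family cytokine, was higher, with 1712, 1837, 1830, 1665 and 1587 under trametinib, against 329, 314, 340, 338 and 272 in DMSO (log2 change 2.44 ± 0.07). The antagonist gene Il1rn rose by 0.72 and the receptor genes Il1r1 and Il18r1 by 1.00 and 2.40. In all, 6 of 10 tested members rose and 3 fell.

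The colony-stimulating factors differed from each other. Csf3, the granulocyte factor G-CSF, had 85.2, 80.9, 81.2, 77.6 and 85.9 with trametinib, against 3241, 3363, 3151, 3746 and 3712 in DMSO (log2 change -5.37 ± 0.06, limma adjusted p = 5.5e-16). Csf2 (GM-CSF) fell by 3.13. Csf1, the macrophage factor, was separated in the other direction, at 9864, 9965, 9504, 10097 and 9102 with trametinib, against 3369, 3510, 3328, 2833 and 3171 in DMSO (log2 change 1.58 ± 0.05). Abundant neutrophil chemokine genes were not lost: Cxcl5 averaged 100684 with trametinib and 95173 in DMSO and Cxcl2 9335 with trametinib and 9595 in DMSO, neither called (0.08 and -0.04). Cxcl15, a mouse CXC chemokine, rose by 4.80. In this list of neutrophil-recruiting factors 6 of 14 tested members rose and 4 fell (median 0.12), and among lymphocyte and monocyte chemokines 4 of 11 tested rose and 4 fell. Both lists were near the shares of all genes, 35.8% higher and 35.3% lower, so these counts are no result about chemokines. Cxcl12 had 1241, 1280, 1332, 1277 and 1295 with trametinib, against 136, 130, 153, 133 and 96.0 in DMSO (log2 change 3.32 ± 0.10). Ccl2 fell by 0.84, and Cxcl10 was not called (0.21).

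Interferon-stimulated genes rose in 33 of 34 members, 29 of them by at least 2-fold, with a median of 1.76 against 0.01 for all genes. The background for a call upward was 35.8%, and 8.8% with the 2-fold rule. The antiviral gene Ifit3 had 1748, 2780, 2692, 2109 and 1843 with trametinib, against 206, 289, 260, 222 and 214 in DMSO (log2 change 3.21 ± 0.13, limma adjusted p = 6.97e-11). Its near copy Ifit3b rose by 3.38, and reads of the pair can be split between them. Ifit1 had 1347, 2073, 1978, 1655 and 1355 with trametinib, against 327, 356, 368, 287 and 289 in DMSO (2.35 ± 0.12). Isg15, the ubiquitin-like modifier, had 727, 1002, 845, 829 and 614 with trametinib, against 265, 291, 257, 310 and 288 in DMSO (1.49 ± 0.11). In these genes the trametinib libraries spread more widely than the DMSO libraries, with replicates 2 and 3 the highest, and still did not overlap with DMSO. The transcription factors of the response also rose, Irf7 by 2.42, Irf9 by 1.13 and Stat2 by 1.03, as did the RNA sensor Ddx58 by 1.90. Mx1 (0.54) lost its call under quantile normalisation (0.36) and without trametinib replicate 2, 3 or 4 or DMSO replicate 1 (0.44 to 0.50), and Oasl1 fell by 0.44.

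Genes of MHC class I presentation rose in 17 of 18 members, 8 by at least 2-fold (median 0.97). Tapbp, the peptide loading factor tapasin, had 17481, 17344, 17760, 18602 and 18281 with trametinib, against 5333, 5880, 5855, 6105 and 5670 in DMSO (log2 change 1.63 ± 0.04, limma adjusted p = 3.38e-13). B2m, the light chain of class I molecules, rose by 1.29, the immunoproteasome subunit Psmb8 by 1.58 and the class I regulator Nlrc5 by 1.60. The heavy chains H2-K1 and H2-D1 rose by 0.58 and 0.54, and H2-Q7 fell by 0.33. DMSO replicate 4 was the highest DMSO library of this list, with a mean log2 level of 10.70 against 10.49 to 10.55 in the others and 11.51 to 11.59 with trametinib. Class I genes are similar in sequence, and reads can be split between them.

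**Figure D3:**
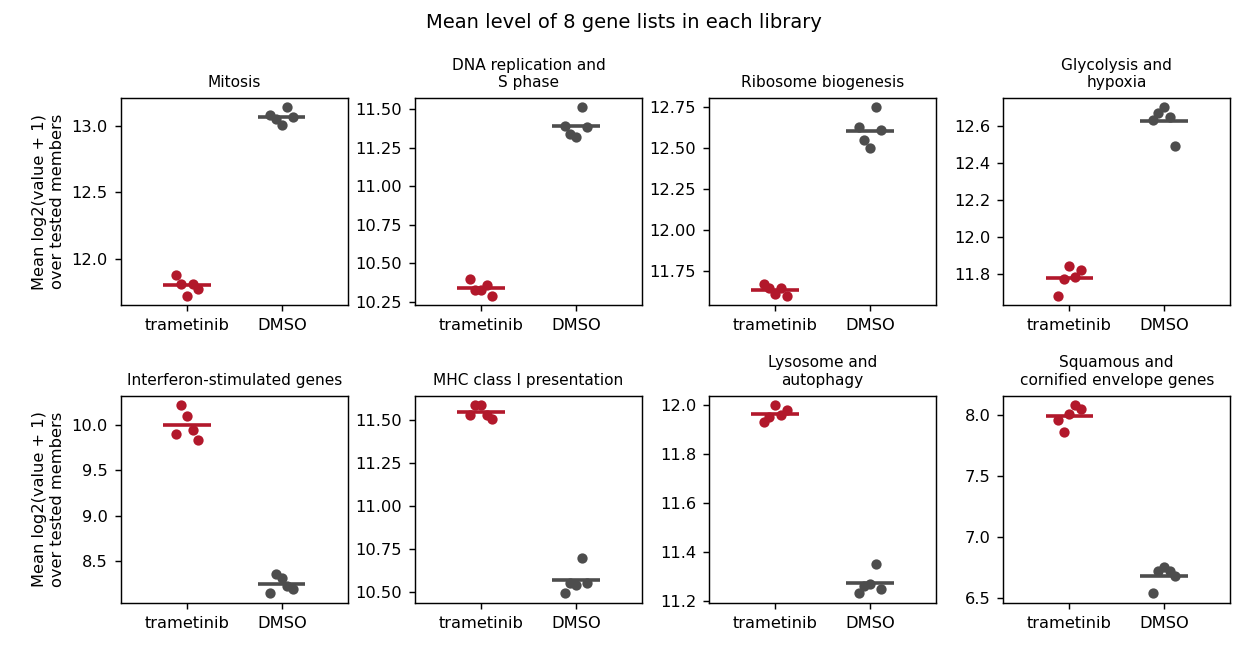
Mean log2(value + 1) over the tested members of 8 gene lists in each trametinib (red, left) and DMSO (grey, right) library; points are libraries and lines group means, and each panel has its own axis that does not start at 0. The trametinib libraries lie below all DMSO libraries in the upper panels and above them in the lower panels, and among interferon-stimulated genes they run from 9.83 to 10.22.

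Il1a, which fell, and Sprr1a, which rose, are the 2 of the 5 markers whose promoter held an AP-1 motif. Promoter letters are shown for them and for the interferon-stimulated genes Isg15, Ifit1 and Ifit3, since AP-1 genes and interferon genes both moved. Each is the 180 bases before the RefSeq start site on GRCm38.p6, 5′ to 3′ on the strand of the gene, and capitals mark an AP-1 motif (TGANTCA) in the first pair and an ISRE core, the interferon response motif, taken as GAAA, any 2 bases and GAAA again, or the reverse complement, in the others. Il1a is at chr2:129309973-129310152 (minus strand), Sprr1a at chr3:92485882-92486061 (minus), Isg15 at chr4:156200819-156200998 (minus), Ifit1 at chr19:34640709-34640888 (plus) and Ifit3 at chr19:34583349-34583528 (plus).
Il1a: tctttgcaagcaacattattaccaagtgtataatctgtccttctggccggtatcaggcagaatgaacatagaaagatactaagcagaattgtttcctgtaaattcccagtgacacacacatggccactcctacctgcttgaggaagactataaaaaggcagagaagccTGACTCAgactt
Sprr1a: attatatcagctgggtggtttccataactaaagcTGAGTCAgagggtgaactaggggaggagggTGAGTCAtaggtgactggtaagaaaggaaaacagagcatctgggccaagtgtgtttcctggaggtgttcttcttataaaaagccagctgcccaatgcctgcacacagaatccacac
Isg15: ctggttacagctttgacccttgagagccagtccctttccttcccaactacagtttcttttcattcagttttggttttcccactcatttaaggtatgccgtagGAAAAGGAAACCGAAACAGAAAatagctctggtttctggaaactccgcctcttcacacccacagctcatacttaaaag
Ifit1: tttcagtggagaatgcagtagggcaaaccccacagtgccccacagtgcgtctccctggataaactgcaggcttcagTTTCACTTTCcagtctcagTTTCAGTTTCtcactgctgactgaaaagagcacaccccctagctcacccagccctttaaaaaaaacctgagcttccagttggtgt
Ifit3: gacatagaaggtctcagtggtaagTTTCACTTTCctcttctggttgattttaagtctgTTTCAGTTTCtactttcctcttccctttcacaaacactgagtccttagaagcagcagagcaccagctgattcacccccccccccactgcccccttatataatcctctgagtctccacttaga

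Both strands of windows from 250 bases before to 50 after the start site were searched, and overlapping matches were counted for the same gene once. The AP-1 motif was found in 8.97% of 27025 genes with a RefSeq window and the ISRE core in 3.99%. In Il1a the AP-1 match starts 12 bases before the start site, and in Sprr1a 2 matches start 146 and 116 bases before it. One of these genes fell and the other rose. Of the squamous list 26 members had a window and 13 held the AP-1 motif (50%), and so did 8 of 25 interferon-stimulated genes (32%). Both lists hold near copies, such as the Sprr2 genes and the pair Ifit3 and Ifit3b, so their windows may not be independent. The AP-1 motif was in 0 of 18 ERK feedback genes, 0 of 19 ERK-driven transcription factors and 0 of 16 genes of MHC class I presentation. The ISRE core was in 15 of 25 interferon-stimulated genes with a window (60%) and in 5 of 16 genes of MHC class I presentation (31.2%). The ETS motif CCGGAA was in 16.7% of all genes, in 2 of 18 ERK feedback genes and in 3 of 19 ERK-driven transcription factors. A match describes the letters of the window, and no binding was measured.

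Genes of the plasminogen system and of matrix proteases with their inhibitors, a list that holds Spp1, rose in 16 of 21 tested members and fell in 4 (median 0.99). Mmp12, the macrophage elastase gene, had 1345, 1524, 1587, 1425 and 1609 with trametinib, against 62.2, 54.9, 77.0, 39.9 and 44.4 in DMSO (log2 change 4.76 ± 0.15, limma adjusted p = 2.12e-12). The membrane metalloprotease genes Mmp15 and Mmp14 rose by 2.86 and 1.35, and the inhibitors Timp2 and Timp3 by 1.69 and 1.63. Plau, the urokinase gene, rose by 0.99 while Plat, of the tissue plasminogen activator, fell by 1.11.

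In the BMP list 10 of 18 tested members rose and 4 fell (median 0.31). Id2 and Id3, inhibitors of basic helix-loop-helix factors, rose by 1.82 and 1.28, but Id1 fell by 0.66. Bmp4 rose by 2.24, while Bmp7 and the activin inhibitor Fst fell by 1.61 and 2.50. In the Notch pathway 7 of 16 tested rose and 5 fell (median 0.18), near the shares of all genes. Rbpj, its DNA-binding factor, averaged 2966 ± 122 with trametinib and 9822 ± 761 in DMSO and fell by 1.72, and the feedback gene Nrarp fell by 1.79. YAP-TEAD targets rose in 9 of 15 and fell in 5 (median 0.41), with Ccn1 at 0.67 and Ccn2 at -0.91. Of all genes 35.8% rose and 35.3% fell.

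Retinoid genes rose in 8 of 14 tested members and fell in 3 (median 0.45). Rarb, a retinoic acid receptor that retinoic acid induces, had 580, 564, 606, 537 and 533 with trametinib, against 153, 169, 199, 139 and 164 in DMSO (log2 change 1.78 ± 0.09). The retinal reductase gene Dhrs3 and the retinal dehydrogenase gene Aldh1a1 rose by 2.46 and 2.38, and Dhrs9 fell by 3.30 at low levels. Among regulators of cell death 9 of 17 tested rose and 5 fell (median 0.38). The pro-apoptotic genes Pmaip1 and Bmf rose by 1.58 and 1.49, while Bcl2l11, which encodes the pro-apoptotic BIM, fell by 0.73. The anti-apoptotic Bcl2 averaged 571 ± 33.3 with trametinib and 2477 ± 112 in DMSO and fell by 2.12, and Mcl1 rose by 0.49. Of 17 fatty acid synthesis genes 9 rose and 5 fell, with a median of 0.25, and of 14 laminin and hemidesmosome genes 9 rose and 3 fell, with a median of 0.38.

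**Figure D4:**
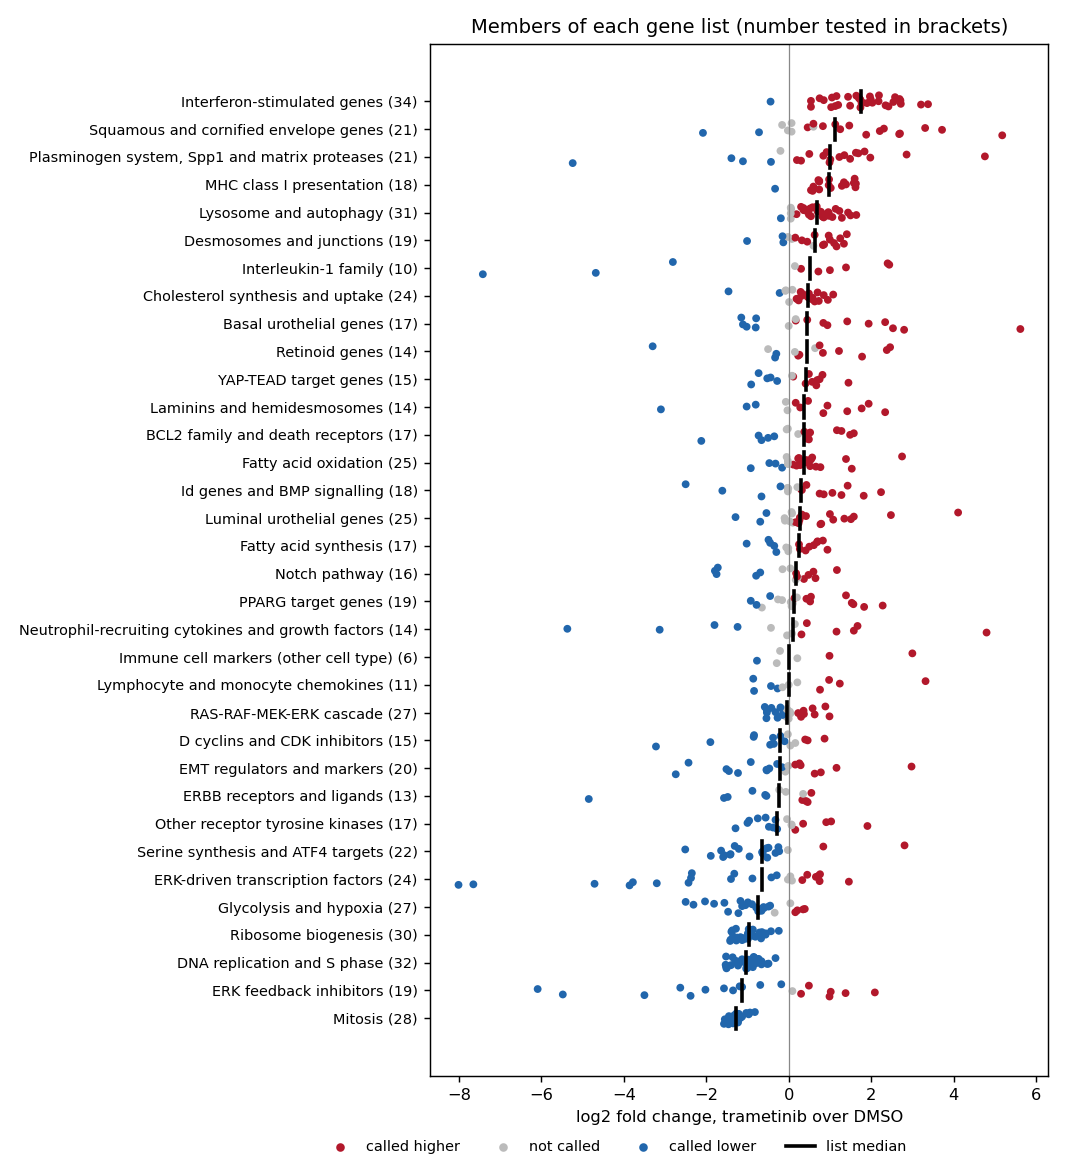
log2 change, trametinib over DMSO, of each tested member of the gene lists with at least 5 tested members, ordered by list median (black bar); red points were called higher, blue lower and grey not called. Interferon-stimulated genes lie at the top with a median of 1.76 and mitosis genes at the bottom with -1.27, while ERK feedback genes run from -6.09 to 2.09.

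Trametinib alone was also set against rosiglitazone plus trametinib, joined through the 5 DMSO libraries that both tables share. Of 14764 genes 932 were called (6.31%), 523 higher with trametinib alone (3.54%) and 409 lower (2.77%). Leaving out a library gave 590 to 2062 calls, the highest without DMSO replicate 4 and the lowest without combination replicate 3; without combination replicate 2 or trametinib replicate 1 it was 603 and without trametinib replicate 2 it was 599. Of 19 tested PPARG targets 6 were lower with trametinib alone and 1 was higher (2 without DMSO replicate 4), and the others were not called. The PPARG target Angptl4 had 1122, 1086, 1137, 1178 and 1085 with trametinib and 2393, 2250, 2252, 2246 and 2317 with the combination, against 264, 332, 333, 344 and 304 in DMSO. The 3 groups did not overlap, and trametinib minus combination was -1.03 ± 0.06 (limma adjusted p = 2.55e-08). Outside that list, the peroxisomal thiolase gene Acaa1b differed by -1.31 ± 0.09.

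Several genes of the trametinib response itself differed in size between these treatments. Sprr1a was lower with trametinib alone by 0.56 ± 0.06 and Sprr2a2 by 0.90 ± 0.07, while Krt14 was higher by 0.50 ± 0.07. Spp1, Fosl1, Csf3 and Ccnd1 had higher values with trametinib alone, by 0.38, 0.54, 0.50 and 0.29. Mitosis genes were higher with trametinib alone than with the combination in 23 of 28 members, and in 17 to 26 when a library was left out, against a background of 3.54%. For Mki67 that difference was 0.19 ± 0.04 (limma adjusted p = 0.00842), where trametinib minus DMSO was -1.46. Serpinb1b and Psca were higher with trametinib alone by 1.17 and 0.95. The transsulfuration enzyme gene Cbs was not called between trametinib and DMSO (-0.08) but was higher with trametinib alone than with the combination by 1.17 ± 0.14 (limma adjusted p = 7.02e-05).

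**Figure D5:**
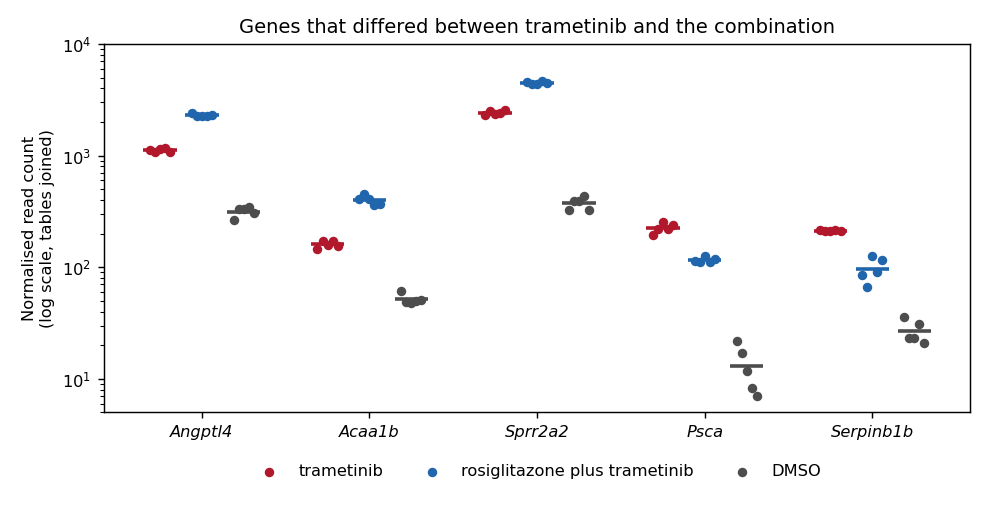
Normalised read count (log axis) of 5 genes in trametinib (red), rosiglitazone plus trametinib (blue) and DMSO (grey) libraries, 5 each, after the tables were joined; points are libraries and lines group means. Angptl4, Acaa1b and Sprr2a2 are lower with trametinib alone than with the combination, Psca and Serpinb1b higher.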

How the data were processed

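Poly-A RNA had been made into TruSeq libraries, per the labels' protocols. The submitters' processing notes name bcl2fastq 2.19, kallisto 0.44.0 and, without a version, DESeq2 as tools of the authors. The same notes list mm10 and GRCm38.p6 as builds, and settings are not given in the sources used here. The signal values, deposited by the authors, were taken as estimated read counts divided by DESeq2 factors. These factors differ by gene and library, so whole reads were not recovered. The authors also deposited log2 fold changes and adjusted p-values, per the file headers, which are quoted where named. Depth was estimated from the value of 1 read in low genes.

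Of 36144 entries, 26 had calendar dates in place of gene names and were not used. Replicate numbers follow accession order. On log2(value + 1), genes were required to reach 10 in 5 or more libraries, and limma 3.58.1 in R 4.3.3 was run with trend and robust variance, adjusted by Benjamini and Hochberg over all genes; the procedure was tested on simulated data. The design had left the unit open, and the normalised values led to limma. For the comparison with the combination, the combination values of each gene were shifted by the mean log2 difference of the 5 shared DMSO libraries between the tables. Between any 2 libraries of a table, 0 genes above 100 in both had exactly equal values.

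The markers and the 37 gene lists were chosen with earlier results of these data known, and support nothing independently. Genes were named by a rule: 5 markers, the 15 largest called changes each way with a mean of at least 50 and no overlap, without predicted genes, and up to 4 members of a list in its majority direction and 2 in the other, by adjusted p; other members were added for their role, after their values were seen, and not every gene that the rule selects is printed; some genes are not reported here. Gene coordinates are from GENCODE M21 on GRCm38, and promoters from RefSeq. Kallisto splits reads between near-identical transcripts. Alternatives were quantile normalisation, median-ratio rescaling, pseudocounts of 0.5 and 4, no filter, a filter of 100 and each library left out; the 2-fold rule and the ISRE motif were added after seeing the data.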

Additional observations from a re-analysis of the deposited data

Results flagged for a closer look

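Dixon's test for a single distant value was run on 189 genes named in the report. It compared the highest and the lowest library of a group of 5 with the rest of that group. Of 378 groups tested 33 held such a library (8.73%), where chance gives about 1 in 20, and 16 of the 33 were DMSO replicate 4.

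DMSO replicate 4 was the highest of its group for the housekeeping and glycolysis genes Gapdh (284867, against 238268 to 246271 in the other DMSO libraries) and Hk2 (7315, against 5205 to 5611). It was also the highest for the epithelial genes Epcam (22782) and Krt18 (27295), for the cell cycle inhibitors Cdkn2a (5116) and Cdkn2b (935), for the AP-1 genes Junb (10197) and Jund (9931) and for Map2k2 (5400). The same held for H2-K1 (21534), Hexa (2669) and Nupr1 (7694). It was the lowest of its group for Cd44 (13887, against 16851 to 17926), Erbb3 (2084), Rbpj (8478) and Spred2 (3692). Every DMSO library, replicate 4 included, lay on the same side of every trametinib library for several of these genes. Among them were Gapdh, Hk2, Epcam, Krt18, Cdkn2a, Cdkn2b, Cd44, Erbb3, Rbpj, Spred2 and Nupr1.

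Single values in other DMSO libraries stood apart too. DMSO replicate 1 was the highest for Fgfr2 (60.8, against 19.8 to 31.1) and Acaa1b (60.6), and replicate 2 the lowest for Fos (133). DMSO replicate 3 was the highest for Sprr2e (53.0) and Tgfb2 (124), and DMSO replicate 5 for Mx1 (122, against 63.2 to 74.2).

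Among trametinib libraries, replicate 2 was the highest for Il1r1 (1240) and for the interferon response factor Irf9 (1407, against 1132 to 1211). Trametinib replicate 5 was the highest for Nrg1 (1294), and trametinib replicate 4 the lowest for Esrp1 (6150, against 6465 to 6571).

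The remaining distant values are of a few reads: Il1b at 4.32 in trametinib replicate 4, Col1a2 at 4.96 in trametinib replicate 4 and 3.19 in DMSO replicate 2, Krt20 at 0.97 in trametinib replicate 4, Upk1b at 4.40 in trametinib replicate 3, Adgre1 at 1.15 in trametinib replicate 5 and Cdh5 at 2.02 in DMSO replicate 5.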

How the results depend on the processing

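Depth limits genes under the filter of 10, such as Krt5 and Trp63, which the main fit did not test. No paired analysis was possible because the labels give no replicate numbers. The 5 markers kept direction and call under every alternative run, with Krt14 at 2.76 to 2.87 and Il1a at -7.47 to -7.35 when a library was left out. Leaving out a library gave 4882 to 5337 genes called higher and 4896 to 5203 lower. Asking for 2-fold as well gave 2279 calls, 1269 higher and 1010 lower. Of the 2-fold genes 824 were higher with a filter of 100, which tests fewer genes. Trametinib minus combination gave 590 to 2062 calls when a library was left out, with 2062 without DMSO replicate 4; the cause was not tested. Calls lost were those of Egf and Mx1, as given above, and also for Egf with no filter. Uncalled genes changed sign: Ivl (-0.07) and Cxcl2 (0.03) under quantile normalisation, and Cbs, which ran from -0.16 to 0.02 when a library was left out, without trametinib replicate 2 (0.02) or DMSO replicate 3 (0.01). Without DMSO replicate 4, Junb (0.11) and Map2k2 (0.08) were called higher. Under quantile normalisation Ccnd2 (0.21), Cxcl5 (0.12) and Junb (0.16) were called higher, and Cxcl5 (0.10) also without trametinib replicate 5. Squamous members called lower numbered 4 with no filter and 0 with a filter of 100. The 1 immune marker called lower, Cd3d, was not called without trametinib replicate 1 or 2 or DMSO replicate 2, 4 or 5. Without trametinib replicate 2 or DMSO replicate 4, 2 fibroblast markers were higher.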

Other observations

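Genes outside the lists gave some of the widest separations, and they are given here as values. Cntnap2, a neurexin-family adhesion gene, had 268, 298, 321, 231 and 264 with trametinib, against 3.19, 4.21, 3.92, 1.89 and 2.93 in DMSO (log2 change 6.06 ± 0.19, n = 5 each, limma adjusted p = 2.74e-12). Nts, which encodes the peptide neurotensin, had 9047, 8413, 8047, 8217 and 7816 with trametinib, against 427, 392, 413, 475 and 360 in DMSO (4.33 ± 0.07). Parm1, a mucin-like membrane protein, averaged 5683 ± 140 with trametinib and 297 ± 40.3 in DMSO (SD). The groups did not overlap for any of these, but the rule that named them required that, so it is no separate result. Cntnap2 reached the filter of 10 in the trametinib libraries only. The potassium-dependent sodium-calcium exchanger gene Slc24a3 rose by 4.26, the sulfotransferase gene Sult1c2 by 4.16 and the aspartic protease gene Ctse by 4.27. Genes usually described in leukocytes also rose, and were near 0 in DMSO: Cytip averaged 118 with trametinib and 3.51 in DMSO, Ms4a4b 95.7 with trametinib and 4.99 in DMSO, and Serpinb9c 115 with trametinib and 3.59 in DMSO. The interferon-inducible GTPase gene Tgtp1 averaged 170 with trametinib and 9.74 in DMSO. Reads of the last 3 can be split with near copies.

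Among the largest decreases outside the lists was Cck, the peptide hormone cholecystokinin, with 4.41, 1.20, 0, 2.78 and 0 with trametinib, against 184, 191, 214, 226 and 229 in DMSO (log2 change -6.61 ± 0.42). The borate transporter family gene Slc4a11 averaged 48.4 ± 13.2 with trametinib and 1617 ± 95.2 in DMSO and fell by 5.07. Ltf, which encodes the iron-binding protein lactoferrin, had a log2 change of -4.34, the synaptic vesicle priming gene Unc13a of -4.18, the secreted protein gene Ism1 of -4.18 and the pseudokinase gene Trib2 of -4.05.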
